A study of Homo sapiens with 52 samples.

Results

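The members described here are 55 interferon-stimulated genes, taken by name from a table of TPM values (a transcript level scaled for length and library total) that holds 43290 genes in all. They were followed in bulk RNA-seq of cultured human endothelial lines: 28 parental libraries quantified together and, apart from them, 24 libraries of a CRISPR interference experiment. All 55 names were found in both sets of columns. 54 passed the filter on low values in the parental libraries (at least 1 TPM in at least 3 libraries, passed by 13542 genes), and 49 passed it in the CRISPR interference libraries (at least 1 TPM in at least 2 libraries, passed by 14143 genes). CMPK2 failed in both sets. IFIT2, OASL, GBP4, RSAD2 and RTP4 failed in the CRISPR interference set only.

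TeloHAEC are aortic endothelial cells of human origin that telomerase keeps dividing. Eahy926 came from the fusion of umbilical vein endothelium and a lung carcinoma line, and is therefore a hybrid. TeloHAEC grew in an endothelial medium that contains VEGF, the vascular endothelial growth factor, and Eahy926 in a standard medium with fetal bovine serum, so line and medium cannot be told apart. Each line had 3 control libraries, 3 with IL-1beta and 3 with TNF-alpha, each cytokine at 10 ng/ml for 24 h. TeloHAEC had 3 further libraries from VEGF-free medium, and Eahy926 had 3 with added VEGF. Another 2 untreated libraries of each line carry a separate number in the labels and stayed outside the comparisons. The CRISPR interference libraries came from TeloHAEC that carry a doxycycline-inducible KRAB-dCas9-BFP repressor, and all of them, controls included, received doxycycline at 2 ug/ml for 5 days. Each of 10 target genes had 2 guides with 1 library each, and 4 libraries carried non-targeting guides. Whether replicate libraries stem from different cultures is not stated in the labels, so p-values measure only the spread between these libraries. In the parental set that spread may be technical. In the CRISPR interference set it also holds differences between the guides of a target. It is shared by all groups of that set, among them MAP2K5 and NFAT5. Their guides A11 and D7 left the target at 105% and 97.1% of the non-targeting mean.

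The number of genes at 1 TPM or more was 12098 to 12987 over the parental libraries and 12299 to 12682 over the CRISPR interference libraries. TPM values keep no read depth, so the counting error behind a low value is unknown. Of 12 endothelial marker genes, all 12 averaged at least 1 TPM in TeloHAEC and 10 did in Eahy926, where CLDN5 was at 0 and EMCN stayed under 1 TPM. Fibroblast markers summed to at most 0.857 TPM in a parental library and leukocyte markers to at most 7.42 TPM, with CD3E and MS4A1 at 0. The 5 smooth muscle markers summed to between 28.7 and 90.9 TPM. The 8 epithelial markers, mostly keratins, summed to 1061 to 2226 TPM in TeloHAEC libraries and 2137 to 4194 TPM in Eahy926 libraries. The 12 endothelial markers summed to 4029 to 4660 TPM in TeloHAEC and 1839 to 2216 TPM in Eahy926. Interferon receptor transcripts were present in both lines: IFNAR1 stood at 38.2 ± 1.2 TPM in TeloHAEC controls and 35.5 ± 6.0 TPM in Eahy926 controls (SD, n = 3 each). IFNLR1, the receptor chain specific to type III interferon, stayed at or under 0.0320 TPM in these control and TNF-alpha group means.

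Interferons are secreted when a cell detects viral nucleic acid. Type I and type III interferons act through the kinases JAK1 and TYK2 and lead to a transcription complex, with STAT2 and IRF9 among its subunits, that binds the interferon-stimulated response element (ISRE). Type II interferon is known to act mainly through the gamma-activated site (GAS). The genes switched on encode sensors of viral RNA, enzymes that degrade or edit RNA, proteins that block entry, budding or translation, and regulators that end the response. Some of them, IRF1 above all, are also known targets of NF-kB, the factor that TNF-alpha and IL-1beta activate.

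The start-site regions of several members are shown because they carry the motifs by which these genes are classed. Promoter sequences of 300 bases (250 before and 50 after the start of transcription) were taken from RefSeq on GRCh38.p14, where 44 of the 55 members were found. DHX58, IFIT2, IFITM2, OAS2, OASL, MX2, GBP2, USP18, IRF2, IRF7 and TRIM22 had no entry. The searched letters were GAAANNGAAA for the ISRE, TTCNNNGAA for the GAS, and the kappa-B motif, each on both strands. In the stretches below, capitals mark the motif named at the start of each line. Each lies upstream of the start of transcription and runs 5′ to 3′ on the gene's strand.
IFIT1 ISRE, chr10:89392500-89392549, plus strand: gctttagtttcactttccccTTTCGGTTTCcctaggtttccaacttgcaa
ISG15 ISRE, chr1:1013370-1013419, plus strand: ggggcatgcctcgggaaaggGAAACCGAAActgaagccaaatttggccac
BST2 ISRE, chr19:17405725-17405774, minus strand: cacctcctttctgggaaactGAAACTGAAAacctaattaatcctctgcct
IFI44L ISRE, chr1:78620355-78620404, plus strand: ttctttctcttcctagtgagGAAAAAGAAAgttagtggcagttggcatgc
ISG20 ISRE, chr15:88638927-88638976, plus strand: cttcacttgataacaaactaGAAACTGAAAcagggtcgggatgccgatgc
SOCS1 ISRE, chr16:11256288-11256337, minus strand: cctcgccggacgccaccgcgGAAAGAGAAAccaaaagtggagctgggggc
IFIH1 ISRE, chr2:162318685-162318725, minus strand: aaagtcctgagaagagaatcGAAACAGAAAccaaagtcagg
IFIH1 kappa-B, chr2:162318731-162318780, minus strand: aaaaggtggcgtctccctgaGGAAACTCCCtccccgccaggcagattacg
OAS3 kappa-B, chr12:112938325-112938374, plus strand: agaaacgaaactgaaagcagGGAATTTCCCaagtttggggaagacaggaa
IRF1 GAS, chr5:132490869-132490917, minus strand: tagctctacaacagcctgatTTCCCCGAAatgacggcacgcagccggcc
IRF1 kappa-B, chr5:132490794-132490843, minus strand: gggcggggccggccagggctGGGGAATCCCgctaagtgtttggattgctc

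The ISRE letters were present in 28 of the 44 member promoters (63.6%), against 3.65% of 27305 promoters of the same length. The GAS letters were in 10 (22.7%, against 7.88% of all), and the kappa-B letters were in 8 (18.2%, against 5.72%). A match is a description of letters and not evidence of binding. Several members are also neighbours: IFIT1, IFIT3 and IFIT5 on chromosome 10, OAS1 and OAS3 on chromosome 12, IFITM1 and IFITM3 on chromosome 11, IFI44 and IFI44L on chromosome 1, and DTX3L with PARP9 on chromosome 3 start within 100000 bases of each other on GRCh38.p14.

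TNF-alpha raised nearly the whole set in Eahy926. Of the 54 members tested, 52 were higher at an adjusted p under 0.05 (limma on log2(TPM + 1), Benjamini-Hochberg over all 13542 genes) and 0 were lower, also at an unadjusted p under 0.05. Of all genes tested, 12.5% were higher and 7.45% were lower. The median log2 change of the members was 1.80, and that of all genes tested was 0.03. When libraries were rescaled by the median of ratios, 52 members were again called higher and 0 lower, while the share of calls over all genes that were higher went from 62.7% to 49.3%. The summed TPM of the 55 members went from 3394 ± 77.5 in the controls to 8579 ± 720 with TNF-alpha (SD, n = 3 each). The exceptions were MX1, whose log2 change of 0.70 did not pass (adjusted p = 0.0560 in limma), and EPSTI1, which was listed at 0 in all 14 Eahy926 libraries.

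**Figure D1:**
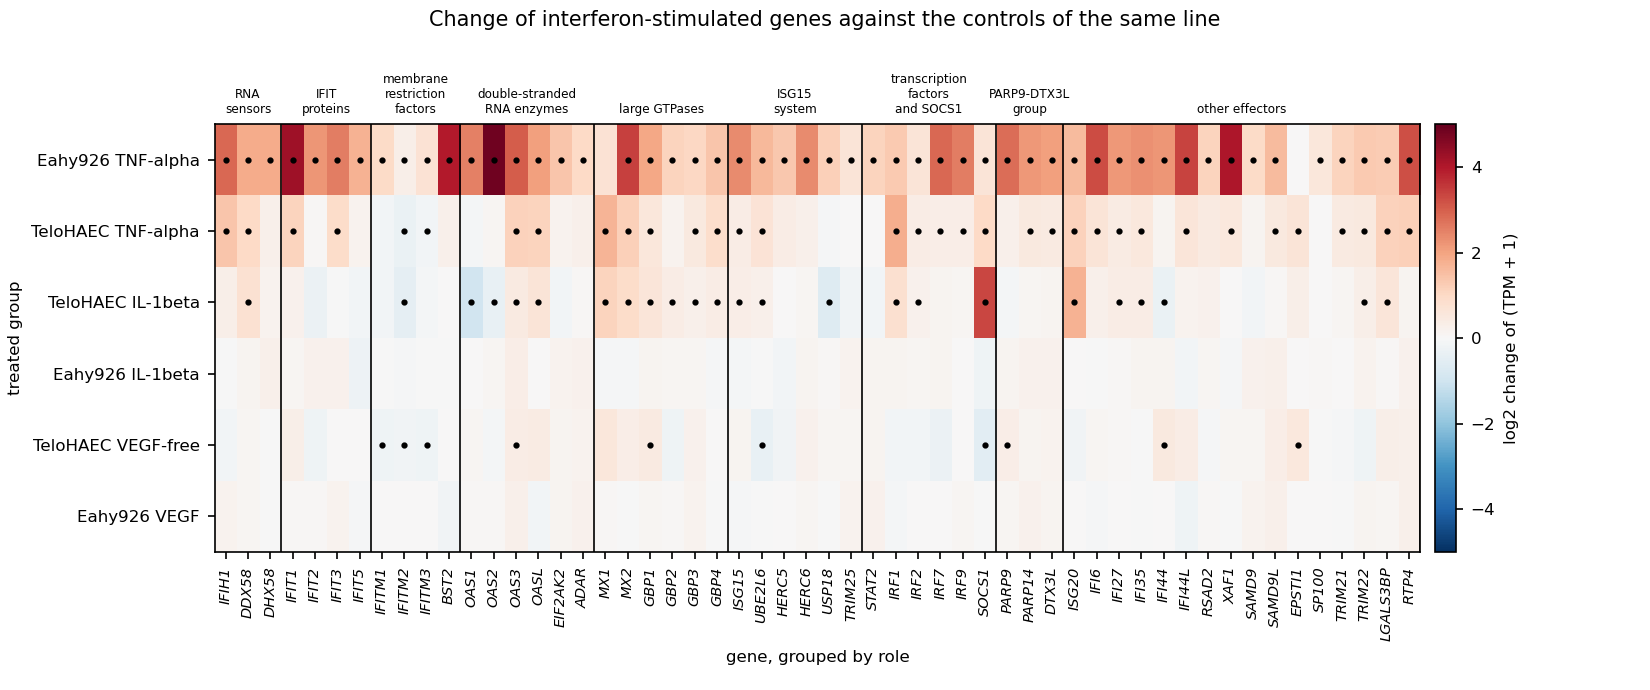
Log2 change of (TPM + 1) for 54 interferon-stimulated genes (columns, grouped by role) in 6 treated groups against the controls of the same line (rows); black dots mark an adjusted p under 0.05 in limma. The Eahy926 TNF-alpha row is raised in 52 of 54 columns, the TeloHAEC cytokine rows are mixed, and the Eahy926 IL-1beta and VEGF rows hold no dot.

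The largest changes with TNF-alpha in Eahy926, among called members that reached 5 TPM, were those of OAS2, IFIT1, XAF1, BST2 and MX2. OAS2 makes the oligoadenylate messenger that activates RNase L. Its level was 3.57, 2.41 and 3.27 TPM in the 3 controls and 134, 94.7 and 129 TPM with TNF-alpha, a ratio of means of 38.7 and a log2 change of 4.88 ± 0.14 (SE, adjusted p = 5.2e-17 in limma). IFIT1, which binds viral RNA ends that lack a host cap mark, was at 3.94, 5.26 and 4.72 TPM in controls and at 121, 80.9 and 115 TPM with TNF-alpha (log2 change 4.23 ± 0.22, adjusted p = 1.15e-12 in limma). For both genes every treated library lay above every control.

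BST2, or tetherin, holds budding virions at the cell surface, and its 50 bases above include an ISRE match. It was nearly silent in untreated Eahy926, at 0.318, 0.301 and 0.327 TPM, and stood at 25.4, 15.0 and 18.8 TPM with TNF-alpha (log2 change 3.95 ± 0.15, adjusted p = 5.31e-15 in limma). XAF1, a pro-apoptotic partner of XIAP, moved from 0.223, 0.254 and 0.138 TPM to 21.6, 12.9 and 24.2 TPM (log2 change 4.05 ± 0.17, adjusted p = 3.92e-14 in limma). MX2, a GTPase that blocks nuclear entry of retroviruses, was at 0.109, 0.0518 and 0 TPM in controls and at 13.4, 7.14 and 11 TPM with TNF-alpha. In BST2, XAF1 and MX2 the groups did not overlap, and control levels were under 1 TPM.

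By role, TNF-alpha in Eahy926 raised all 3 RNA sensors, all 4 IFIT proteins, all 4 membrane restriction factors, all 6 double-stranded RNA enzymes, all 6 members of the ISG15 system, all 6 transcription factors with SOCS1, and all 3 of the PARP9-DTX3L group, besides 5 of 6 large GTPases and 15 of 16 other effectors tested. The median log2 change was 2.37 in the IFIT proteins and 2.29 in the double-stranded RNA enzymes, and 0.83 in the membrane restriction factors. ISG15, the ubiquitin-like modifier, rose from 66.8, 91.3 and 70.0 TPM to 443, 352 and 382 TPM, and USP18, the protease that removes it, from 51.4 ± 1.6 to 117 ± 9.6 TPM (SD, n = 3). Among the transcription factors, IRF7 rose from 17.3 ± 1.2 to 132 ± 11 TPM and IRF9 from 25.2 ± 2.0 to 151 ± 13 TPM, while IRF2 rose by a log2 change of 0.63. The IFITM proteins, which hinder virus entry at membranes, were already abundant: IFITM3 went from 1190, 1294 and 1123 TPM to 2078, 1857 and 2042 TPM. IFITM2 and IFITM3 are near-identical copies and IFITM1 is a related gene, so how reads were shared among them is uncertain.

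In TeloHAEC the same cytokine at the same dose and time raised 32 of the 54 members and lowered 2, against 8.27% of all genes higher and 9.95% lower. The median log2 change was 0.44, and that of all genes was -0.02. The summed TPM of the members was 5043 ± 81.9 in controls and 5245 ± 37.5 with TNF-alpha. In both lines 30 members were called higher, which is 93.8% of the TeloHAEC list and 57.7% of the Eahy926 list. With 52 of 54 members higher in Eahy926, 30 is the smallest overlap the list sizes allow, so nothing is read from it. Summed epithelial markers went from 2047 to 2134 TPM in TeloHAEC controls to 1483 to 1572 TPM with TNF-alpha, and their part was not tested. Of 6 epithelial markers that passed the filter, 3 were called lower and 1 higher.

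IRF1, the transcription factor that carries both a GAS and a kappa-B match above, had the largest change in TeloHAEC among called members that reached 5 TPM. It was at 15.1, 13.0 and 14.5 TPM in controls and 52.7, 49.9 and 55.1 TPM with TNF-alpha, a ratio of 3.70 (log2 change 1.82 ± 0.08, adjusted p = 7.29e-14 in limma). MX1, a GTPase that traps viral nucleocapsids, rose from 0.995, 1.28 and 1.36 TPM to 6.50, 4.73 and 7.24 TPM (log2 change 1.68 ± 0.26, adjusted p = 3.42e-05 in limma). IFIH1, the MDA5 sensor of long double-stranded RNA, was at 5.89, 5.10 and 6.24 TPM in controls and at 15.9, 16.5 and 17.1 TPM with TNF-alpha. All 3 genes separated fully between the groups.

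ISG20, an exonuclease that degrades RNA, rose from 7.67, 7.92 and 6.64 TPM to 17.2, 17.1 and 19.1 TPM (log2 change 1.16 ± 0.10 in TeloHAEC). OAS3, the oligoadenylate synthetase that responds to long RNA, rose from 18.3, 18.2 and 19.6 TPM to 42.1, 41.8 and 42.8 TPM (log2 change 1.13 ± 0.11). By contrast OAS1 and OAS2 did not pass the test in TeloHAEC, with log2 changes of -0.10 and 0.10. The 2 lower members were IFITM2, at 1228, 1184 and 1244 TPM in controls and 993, 998 and 944 TPM with TNF-alpha, and IFITM3, with a log2 change of -0.14 (adjusted p = 0.0168 in limma). The IFITM3 call rests on the choice of untreated libraries: with all 5 of them in the fit its log2 change was 0.05 (adjusted p = 0.833), and IFITM2 had an adjusted p of 0.378.

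**Figure D2:**
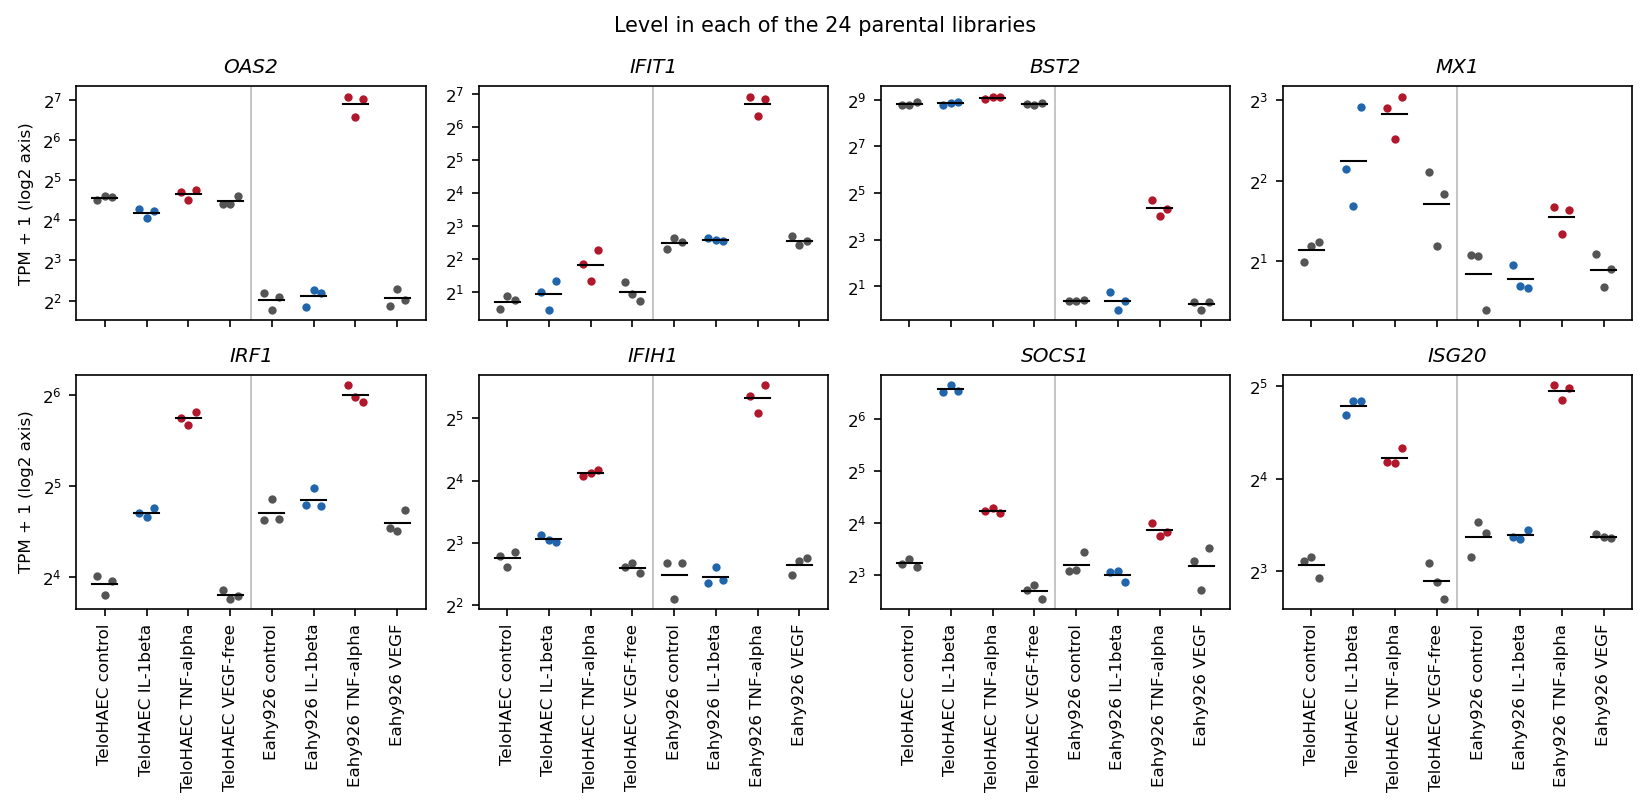
Level of 8 members in each of the 24 parental libraries (TPM + 1, log2 axis; 1 point a library, bars at the mean of the log2 values, red for TNF-alpha, blue for IL-1beta, grey for the rest). OAS2, IFIT1 and BST2 rise with TNF-alpha on the Eahy926 side, IRF1, IFIH1 and ISG20 rise with it in both lines, and SOCS1 is highest in the TeloHAEC IL-1beta libraries at 90.8 to 99.0 TPM.

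The response to TNF-alpha differed between the lines for 46 of the 54 members when the difference itself was tested. It was smaller in TeloHAEC for 45 (7.05% of all genes were) and larger for 1, IRF1 (3.26% of all genes were). These are differences of log2(TPM + 1), which understates a change from a low level. For a gene low in 1 line, the difference need not follow the TPM ratios. OASL, among the 45, was under 1 TPM in TeloHAEC controls, with log2 changes of 1.12 in TeloHAEC and 2.04 in Eahy926. The median difference, TeloHAEC minus Eahy926, was -1.22 on the log2 scale, and -0.06 over all genes. The widest differences were -4.78 ± 0.20 for OAS2, -3.68 ± 0.21 for BST2, -3.53 ± 0.24 for XAF1, -3.10 ± 0.31 for IFIT1 and -2.79 ± 0.23 for IFI44L (SE, each with an adjusted p of at most 2.19e-07 in limma). IRF1 went the other way by 0.53 ± 0.11 (adjusted p = 0.00255 in limma, and 0.0939 with all 5 untreated libraries of each line). For MX1, SOCS1, ISG20, LGALS3BP, GBP4, IRF2, RSAD2 and EPSTI1 the difference did not pass the test, which does not show that the lines respond alike. Across the 54 members the log2 changes of the lines had a Pearson r of 0.178 and a Spearman rho of 0.269, given as a description over genes that share libraries. Over all genes tested rho was 0.385.

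**Figure D3:**
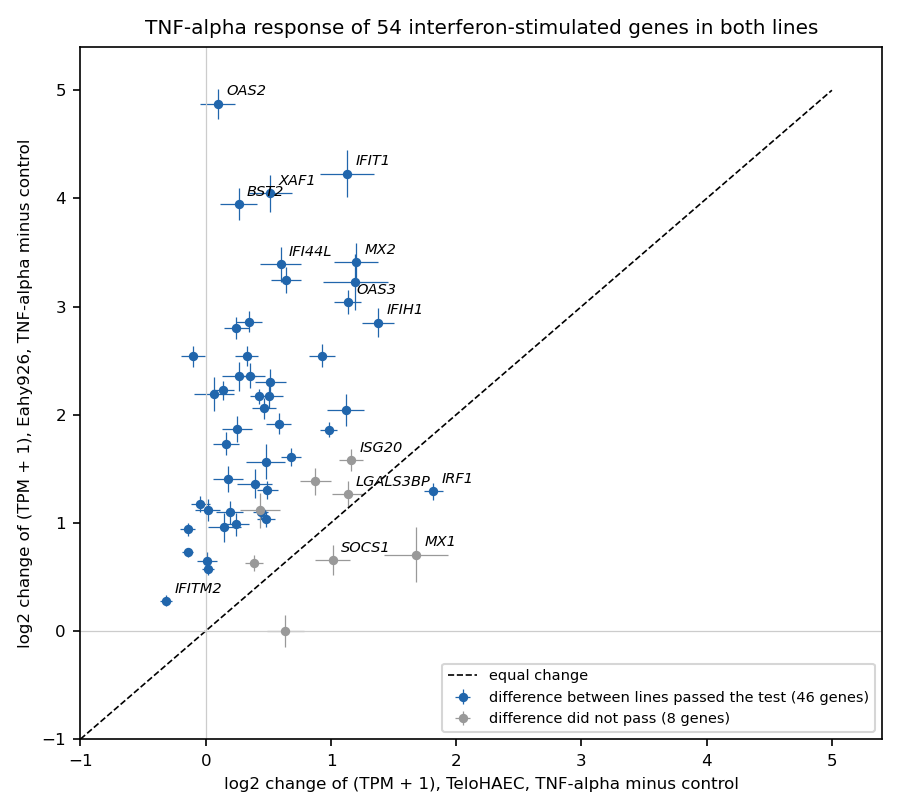
Log2 change of (TPM + 1) with TNF-alpha in TeloHAEC (x axis) and in Eahy926 (y axis) for 54 interferon-stimulated genes, with standard errors; blue points passed the test of the difference between lines and the dashed line marks equal change. 50 of 54 points lie above the line, with OAS2 at 0.10 on the x axis and 4.88 on the y axis, and IRF1 lies below it.

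Upstream of the members, the ligand, receptor and signal transducer genes were read from lists. Of the 8 listed interferon genes, IFNE alone passed the filter on low values. IFNB1, which encodes interferon beta, was at 0 in every TeloHAEC library of the 4 groups compared and in the 3 Eahy926 controls, and at 0.951, 0 and 1.05 TPM with TNF-alpha in Eahy926. IFNL1, a type III interferon, averaged 0.341 ± 0.35 TPM there and was at 0 in the controls. IFNB1 and IFNL1 were not tested, since both failed the filter, and 1 of the 3 TNF-alpha libraries was listed at 0 for IFNB1. IFNE rose in Eahy926 with TNF-alpha, from 0.682 ± 0.32 to 2.18 ± 0.53 TPM (log2 change 0.92). Its log2 change in Eahy926 was also 0.76 with VEGF and 0.42 with IL-1beta. In TeloHAEC it was 0.63 with TNF-alpha, -0.08 with IL-1beta and -0.16 in VEGF-free medium. None of these other changes passed in limma, nor did the difference between the lines with TNF-alpha (-0.30).

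Of all genes tested, 12.5% rose with TNF-alpha in Eahy926, and 8.27% rose and 9.95% fell in TeloHAEC. Of 10 receptor and transducer genes tested, 8 rose in Eahy926 with TNF-alpha and 4 in TeloHAEC, among them IFNAR1 in both. Of 12 tested genes that act upstream of interferon, 8 rose in Eahy926 and 5 in TeloHAEC, where 1 fell. TLR3, the endosomal receptor of double-stranded RNA, rose in both, from 9.52 ± 2.3 to 23.6 ± 2.9 TPM in Eahy926 and from 6.10 ± 0.19 to 9.43 ± 1.2 TPM in TeloHAEC.

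A list of 38 further tested interferon-stimulated genes outside the members had 37 higher in Eahy926 and 17 higher in TeloHAEC with TNF-alpha. Over all genes tested the shares higher were 12.5% and 8.27%. The list was written with earlier results of these data known, so it is no independent check of the members. NF-kB targets rose in both lines: 8 of 8 passed, with a median log2 change of 3.40 in Eahy926 and 3.72 in TeloHAEC. TRAF1, an adaptor of the TNF receptors, went from 0.621 ± 0.085 to 20.9 ± 1.3 TPM in Eahy926 and from 0.968 ± 0.28 to 63.2 ± 1.4 TPM in TeloHAEC. Its response was larger in TeloHAEC (adjusted p = 1.19e-05 for the difference in limma). Of the 8 NF-kB targets, 5 had a larger TNF-alpha response in TeloHAEC and 3 a smaller one. Summed epithelial markers, mostly keratins, moved too: from 4095 to 4158 TPM in Eahy926 controls to 2530 to 2672 TPM with TNF-alpha, and their part in these results was not tested. Of 6 epithelial markers that passed the filter, 4 were called lower and 0 higher.

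IL-1beta raised members more often than genes at large in TeloHAEC, and lowered them less often. It raised 19 of the 54 members (35.2%, against 9.92% of all genes) and lowered 5 (9.26%, against 21.2% of all genes). The median log2 change was 0.13, against -0.07 over all genes. Summed epithelial markers were at 1061 to 1100 TPM with IL-1beta and 2047 to 2134 TPM in the controls, and their part was not tested. Of 6 epithelial markers that passed the filter, 3 were called lower and 0 higher. SOCS1, the inhibitor of JAK kinases that ends interferon signalling, had the largest change. It was at 8.31, 8.90 and 7.93 TPM in controls and at 90.8, 99.0 and 92.3 TPM with IL-1beta, a ratio of 11.2 (log2 change 3.34 ± 0.14, adjusted p = 2.36e-14 in limma). ISG20 rose from the 7.41 ± 0.68 TPM of the controls to 24.7, 27.6 and 27.7 TPM (log2 change 1.72 ± 0.10). IRF1, DDX58 and GBP1 rose by ratios of 1.77, 1.74 and 1.54. DDX58 encodes RIG-I, the sensor of viral RNA ends, and GBP1 is a GTPase that coats intracellular bacteria.

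All 6 large GTPases rose with IL-1beta in TeloHAEC, with a median log2 change of 0.49, while the median was -0.07 in the 4 IFIT proteins and 0.10 in the 3 PARP9-DTX3L genes, none of which passed in limma. The lowered members included OAS1, at 13.7, 15.9 and 15.7 TPM in controls and 7.24, 7.30 and 7.40 TPM with IL-1beta (log2 change -0.95 ± 0.10, adjusted p = 7.75e-08 in limma). USP18 was at 41.8, 37.9 and 36.8 TPM in controls and 21.4, 27.0 and 24.9 TPM with IL-1beta (log2 change -0.65 ± 0.08). IFITM2 fell from 1218 to 882 TPM on average and IFI44 from 44.1 to 35.2 TPM. Both of these calls were lost with all 5 untreated libraries (adjusted p = 0.0572 for IFITM2 and 0.173 for IFI44 in limma), and that of IFI44 also without IL-1beta replicate 2 (0.0562). OAS1 and OAS3 are neighbours on chromosome 12 and moved in opposite directions, since OAS3 rose by 0.45. The OAS2 call, a log2 change of -0.37 (adjusted p = 0.0459 in limma), did not hold with a pseudocount of 0.1 TPM (adjusted p = 0.0795), nor with no filter, with either rescaling, with the replicate block or with all 5 untreated libraries, where the adjusted p ranged from 0.0611 to 0.36.

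Set directly against each other in TeloHAEC, IL-1beta gave higher levels than TNF-alpha for 2 members (3.52% of all genes) and lower levels for 20 (9.22% of all genes), with a median log2 difference of -0.31 against -0.05 over all genes. The 2 higher were SOCS1, with means of 94.0 and 17.9 TPM, and ISG20, with 26.7 and 17.8 TPM. Lower with IL-1beta were IFIH1 (7.33 and 16.5 TPM), IRF1 (25.1 and 52.6 TPM), IFIT3 (4.37 and 9.31 TPM), OAS1 (7.31 and 14.0 TPM) and OAS3 (25.9 and 42.2 TPM), each with an adjusted p of at most 0.00014 in limma. The count of 22 became 13 without TNF-alpha replicate 3 and 11 with all 5 untreated libraries in the fit. In that last fit the ISG20 difference no longer passed (adjusted p = 0.253), with its log2 value unchanged at 0.56. Untreated libraries enter this comparison only through the spread shared by all groups, the filter on low values and the adjustment over all genes.

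Eahy926 showed no called member with IL-1beta. With 0.00738% of all genes called in either direction, 0 of 54 members passed in limma, and 7 had an unadjusted p under 0.05. SOCS1, raised 11.2 times in TeloHAEC, was at 8.30 ± 1.4 TPM in Eahy926 controls and its response differed between the lines by 3.54 ± 0.20 on the log2 scale (adjusted p = 9.33e-12 in limma). In all, 10 members had a larger IL-1beta response in TeloHAEC (5.96% of all genes) and 5 a smaller one (16.5% of all genes), the smaller ones being OAS1, USP18, IFI44, IFITM2 and TRIM25. With either rescaling the counts were 13 larger and 3 smaller, and IFI44 and TRIM25 no longer passed. With all 5 untreated libraries the IFI44 difference was -0.05 (adjusted p = 0.939 in limma), and IFITM2 and TRIM25 did not pass either (0.0602 and 0.0854). The 8 NF-kB targets had a median log2 change of 0.06 in Eahy926 with IL-1beta and 2.77 in TeloHAEC. This test of the line difference was added after the values were seen.

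Removing VEGF from TeloHAEC medium raised 5 members (9.26%, against 9.10% of all genes) and lowered 5 (9.26%, against 4.02% of all genes). The share of members called higher was thus close to that of genes at large. The higher were IFI44, GBP1, OAS3, PARP9 and EPSTI1, led by IFI44 at 63.8, 60.2 and 61.5 TPM against 42.3, 43.7 and 46.3 TPM in controls. The lower were IFITM1, IFITM2, IFITM3, SOCS1 and UBE2L6, the enzyme that conjugates ISG15, with means of 35.1 and 45.2 TPM. The count of 10 is not stable: it was 5 without VEGF-free replicate 3, 6 without VEGF-free replicate 2 or without control replicate 1 or 3, and 5 with all 5 untreated libraries. Adding VEGF to Eahy926 gave 0 calls among the members in limma (0.00738% of all genes in either direction), with 4 members at an unadjusted p under 0.05.

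Untreated, the lines differed widely in these genes, as in genes at large: 16 of 54 members were higher in TeloHAEC (36.3% of all genes were) and 24 were lower (39.9% of all genes). BST2 had the widest gap, at 432, 442 and 479 TPM in TeloHAEC against 0.318, 0.301 and 0.327 TPM in Eahy926 (log2 difference 8.42 ± 0.15). Even with TNF-alpha the Eahy926 level of BST2, 19.7 ± 5.3 TPM, stayed below every untreated TeloHAEC library. OAS2 was also higher in TeloHAEC, at 22.7 ± 0.91 against 3.08 ± 0.60 TPM, as was IFI27 at 480 ± 11 against 121 ± 10 TPM. DHX58, the LGP2 regulator of the RNA sensors, was at 6.50 ± 0.22 against 1.37 ± 0.30 TPM. The members with the largest TNF-alpha response in Eahy926 thus include genes that started both lower there (OAS2, BST2, XAF1) and higher there (IFIT1) than in TeloHAEC.

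Higher in untreated Eahy926 were LGALS3BP, a secreted glycoprotein, at 31.0, 27.9 and 29.7 TPM against 0.147, 0.126 and 0.366 TPM, and OASL, an OAS-like protein that aids RIG-I, at 13.7, 13.2 and 14.5 TPM against 0.318, 0.273 and 0.264 TPM. IFIT2 and IFIT3 stood at 8.52 ± 1.7 and 23.2 ± 0.35 TPM in Eahy926, against 0.743 ± 0.38 and 4.44 ± 0.53 TPM in TeloHAEC. SAMD9, a cytoplasmic antiviral factor, was at 81.4, 52.9 and 94.8 TPM against 13.3, 17.0 and 16.3 TPM. All 6 members of the ISG15 system and 3 of 4 IFIT proteins were lower in TeloHAEC, while all 4 membrane restriction factors were higher. CMPK2 was listed at 0 in all 14 Eahy926 libraries, as was EPSTI1, and RSAD2 (viperin), whose gene lies beside CMPK2 on chromosome 2, reached at most 1.63 TPM there.

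**Figure D4:**
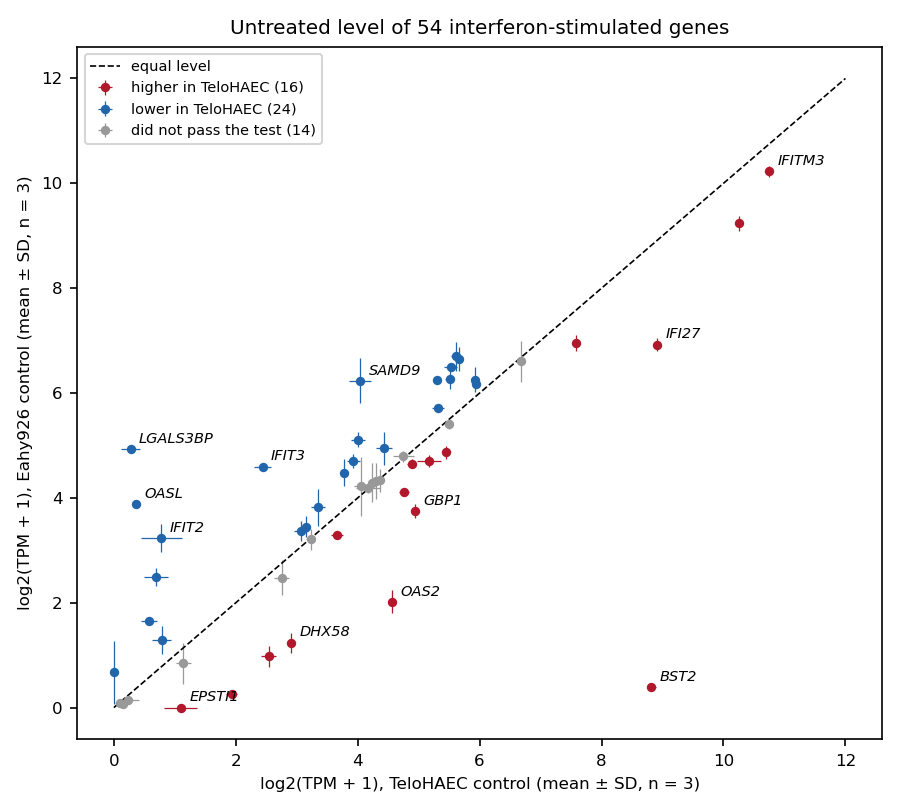
Mean log2(TPM + 1) of 54 members in the TeloHAEC controls (x axis) and the Eahy926 controls (y axis), with SD over 3 libraries; red points passed the test as higher in TeloHAEC, blue as lower, and the dashed line marks equal level. BST2 lies far to the lower right, LGALS3BP, OASL and IFIT2 to the upper left, and 14 grey points did not pass.

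The motif matches can be set beside these changes as a description. Among members with an ISRE match, 20 of 28 were called higher with TNF-alpha in TeloHAEC and 26 of 28 in Eahy926. Among matched and tested members without one, 7 of 15 were called higher in TeloHAEC and 15 of 15 in Eahy926. The median log2 changes in TeloHAEC with TNF-alpha were 0.54 with an ISRE match and 0.33 without. With a kappa-B match, 6 of 8 members were called higher in TeloHAEC with TNF-alpha, and 21 of 35 without, with medians of 0.93 and 0.44. With a GAS match, 7 of 10 were called higher, and 20 of 33 without, with medians of 0.45 and 0.48. No test was run on these splits.

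CRISPR interference against 10 genes changed few members. In the CRISPR interference libraries, whose values were quantified apart from the parental ones, 3 of the 10 knockdowns gave called members: CCM2, ITGB1BP1 and PDCD10, which encode the CCM complex partners that restrain MEKK3 signalling and, in the case of ITGB1BP1, an integrin-binding partner of that complex. Each test set 2 guide libraries against 4 non-targeting libraries, whose own members' medians, each against the other 3, ran from -0.05 to 0.04.

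With CCM2 targeted (15.6% and 4.45% of the non-targeting level left), 6 of 49 members were higher (5.66% of all genes were) and 0 were lower in limma, with 1 lower at an unadjusted p under 0.05 (8.37% of all genes were lower). The members' median log2 change was 0.24, against -0.10 over all genes. IFI27 was at 362, 389, 352 and 374 TPM in the non-targeting libraries and at 867 and 1063 TPM with the CCM2 guides (log2 change 1.38 ± 0.18, adjusted p = 8.41e-05 in limma). IFITM3 was at 1318 to 1370 TPM and at 2079 and 2559 TPM, and OAS1 at 16.1 to 22.2 TPM and at 39.6 and 33.6 TPM. IFI6, which limits flavivirus replication, IFITM2 and TRIM25, a ubiquitin ligase of the RIG-I pathway, made up the rest. Leaving out either guide left 3 called members, and OAS1 was not called in either case. Summed leukocyte markers, mostly CD14, were at 41.3 to 50.3 TPM with CCM2 guides and 12.3 to 14.3 TPM in the non-targeting libraries. Summed epithelial markers were at 5402 to 6506 TPM and 1209 to 1393 TPM, and the part of either list was not tested. Of 4 epithelial markers that passed the filter, KRT18 (4966 against 896 TPM on average) and KRT19 (865 against 296 TPM) were called higher. KRT7 was called lower (1.38 against 6.11 TPM), and KRT8 was not called.

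With ITGB1BP1 targeted (12.9% and 14.2% left), 3 of 49 members were higher (6.12%, against 3.34% of all genes) and 2 lower (4.08%, against 4.36% of all genes). The share of members called lower was thus close to that of genes at large. IFI27 was again higher, at 816 TPM with guide C7 and 600 TPM with guide G8, as were IFITM3, at 2176 and 1899 TPM, and TRIM25. IFI35, a partner of other interferon-induced proteins, was lower, at 7.15 and 5.34 TPM against 10.7 to 14.5 TPM, and STAT2 was at 11.5 and 11.9 TPM against 15.7 to 20.1 TPM. The guides differed over the set: the members' median was 0.23 with C7 and -0.09 with G8. With G8 alone the log2 changes of IFI27 and IFITM3 were 0.70 and 0.49, and neither was called. The call count fell from 5 to 1 without guide C7. STAT2 was lost without either guide (adjusted p = 0.129 and 0.0717 in limma) and IFI35 without G8 (0.103). TRIM25 was lost without either guide (0.282 and 0.0891), with no filter (0.0604), and without non-targeting library D2, D8 or F4 (0.0624 to 0.0668). Summed epithelial markers were at 2936 to 3266 TPM with ITGB1BP1 guides and leukocyte markers at 21.1 to 24.9 TPM, against the non-targeting ranges given for CCM2, and their part was not tested. Of 4 epithelial markers that passed the filter, 2 were called higher and 0 lower.

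With PDCD10 targeted, 6 of 49 members were lower (12.2%, against 4.55% of all genes) and 1 was higher (2.04%, against 2.50% of all genes). The members' median was -0.33, against -0.10 over all genes. This split depends on the scaling: by the median of ratios 4 members were higher and 3 lower, while the share of calls over all genes that were higher went from 35.4% to 61.9%. By quantile normalisation 1 was higher and 4 lower. OAS2 was at 30.3, 36.5, 32.7 and 24.4 TPM in the non-targeting libraries and at 12.1 TPM with guide D11 and 17.4 TPM with guide G1 (log2 change -1.03 ± 0.20, adjusted p = 0.00932 in limma). OAS3 was at 2.45 and 6.02 TPM against 7.14 to 8.46 TPM, and IFI44 at 7.19 and 15.0 TPM against 17.6 to 20.7 TPM, and both calls were lost with either rescaling. GBP1, PARP14 and ADAR, the editing enzyme of double-stranded RNA, were the other lower members. IFI27 was higher here too, at 783 and 440 TPM. In all 7 called members the change was further from 0 with D11, which left 12.9% of PDCD10, than with G1, which left 40.9%. The gap was narrow for ADAR, at -0.34 and -0.33 on the log2 scale, and wide for OAS3, at -1.34 and -0.32.

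These PDCD10 calls depend on which libraries enter. 19 members were called without guide G1, 4 of them higher and 15 lower, and 0 without guide D11. Without any 1 of the 4 non-targeting libraries between 2 and 4 were called, and 0 were called when only the 2 groups compared were fitted. Summed epithelial markers were at 2631 to 6818 TPM with PDCD10 guides and 1209 to 1393 TPM in the non-targeting libraries, and their part was not tested. Of 4 epithelial markers that passed the filter, 2 were called higher and 0 lower. CCM2 and ITGB1BP1 had IFI27, IFITM3 and TRIM25 called higher in common, but all 3 comparisons share the same non-targeting libraries. The ITGB1BP1 calls of these genes did not hold without guide C7, and that of TRIM25 was also lost otherwise, as stated.

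The guides behind these values are designed sequences, shown to tell the 2 libraries of each target apart. Capitals mark the whole guide, 5′ to 3′. For 4 of the 6, all bases after the leading G were found in an exon of the target in GENCODE 29 (GRCh38). Guide D11 was found at chr3:167734747-167734765 and G1 at chr3:167734625-167734644, both in exon 1 of PDCD10, F6 at chr7:45000256-45000275 in exon 1 of CCM2, and C7 at chr2:9423418-9423437 in exon 1 of ITGB1BP1. C2 and G8 had no match in the target's exons.
PDCD10 guide D11: GACCGAGCAGAAGAGGTCTA
PDCD10 guide G1: GCCGCTTTACGCCACTCGCGT
CCM2 guide C2: GGCAAGAAGGTGAGCGTGCG
CCM2 guide F6: GAGCCGCTACATGCTCGACCC
ITGB1BP1 guide C7: GAAGGCCGCGGCACTCCCACG
ITGB1BP1 guide G8: GCCGCGGTATATAAGCCGGC

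The other 7 knockdowns gave 0 called members in limma. The shares of all genes called in either direction were as low: 0.0141% for CDH5 (0 members at an unadjusted p under 0.05), 0.0141% for KLF2 (8 members), 0% for MAP2K5 (1), 0.0566% for MAP3K3 (4), 0.00707% for MEF2A (5), 0.552% for MESDC1 (6) and 0.00707% for NFAT5 (3). For MAP2K5 guide A11 and NFAT5 guide D7 the target itself stood at 105% and 97.1% of the non-targeting mean, so 1 of the 2 libraries in each of those pairs was not reduced. NFAT5 guide D4, which left 18.7% of its target, had a members' median of 0.29 with 43 of 49 members above the non-targeting mean, where 55.2% of all genes were above it, and guide D7 had -0.04. KLF2 guide C9 had 41 of 49 above it (50.7% of all genes) and guide G10 had 17 (38.4% of all genes). MEF2A guides C10 and H10 had 38 and 36 (53% and 48.6% of all genes). Each of these counts is from 1 library. MESDC1 had IFITM2, IFITM3 and IFI27 as its members with the lowest p, with log2 changes of 0.36, 0.40 and 0.54 that did not pass (adjusted p = 0.0739 to 0.247 in limma), and 3 members passed when only the 2 groups were fitted.

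**Figure D5:**
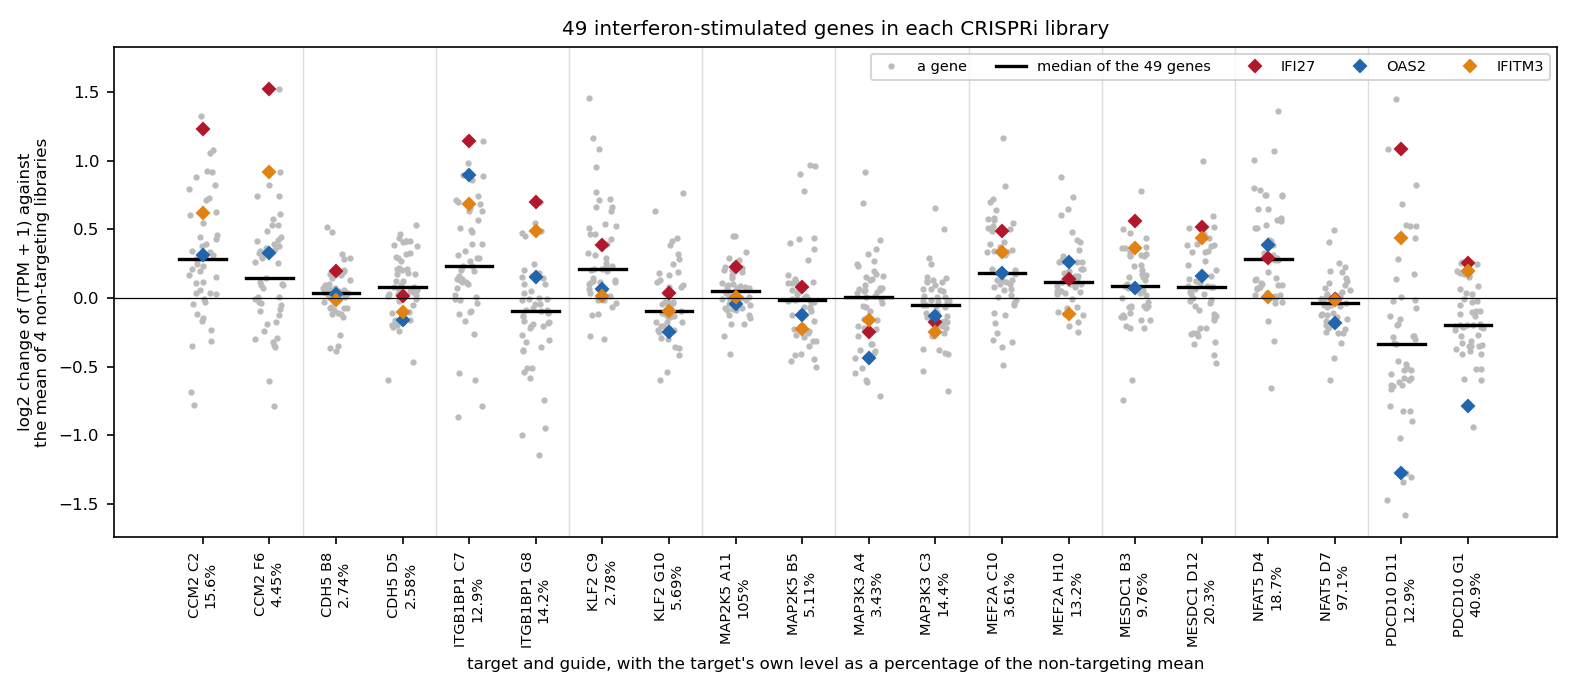
Log2 change of (TPM + 1) of 49 members in each of the 20 targeting libraries against the mean of 4 non-targeting libraries (grey points, 1 a gene; black bar, median), with IFI27, OAS2 and IFITM3 marked; the axis labels give the target's remaining level. IFI27 is above 0.5 with both guides to each of CCM2, ITGB1BP1 and MESDC1, and OAS2 is below -0.5 with both PDCD10 guides.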

How the data were processed

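RNA-seq of 52 libraries was deposited by the authors as a single table of TPM per gene symbol. The submitters' processing notes name Bowtie2, kallisto and the build hg19, with no versions or roles. TPM sums to 1000000 in each parental library, and to between 968439 and 972166 in the CRISPR interference libraries, which were quantified apart, so tests were run within each set only. Samples were grouped by the labels, which title a VEGF-free group by the factor it lacks. From these values log2(TPM + 1) was computed, so fold changes of low genes are understated. Genes were kept at 1 TPM or more in at least 3 parental or 2 CRISPR interference libraries. A linear model per block was fitted with limma 3.58.1 (R 4.3.3; trend in eBayes, two-sided, Benjamini-Hochberg over all genes kept, threshold 0.05), with all groups sharing the spread. The script was tested on simulated data. Motif searches and figures used Python 3.11.15 and matplotlib 3.10.9. The members and lists were chosen with earlier results of these data known. Values per library are given for the 5 called members with the largest change per direction (3 per knockdown) that reached 5 TPM in the higher group, and members at 0 are named. Up to 3 called genes per pathway list were named by the same measure. Other genes shown were chosen after their values were seen. Depth is unknown. Alternatives were another pseudocount, filters, rescalings, a replicate block, all untreated libraries, only the groups compared, and leaving out each library.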

Additional observations from a re-analysis of the deposited data

Results flagged for a closer look

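The response to TNF-alpha differed between TeloHAEC and Eahy926 in 46 of 54 members by the test of the difference itself in limma. The named differences, TeloHAEC minus Eahy926 on the log2 scale, were 0.53 for IRF1, -4.78 for OAS2, -3.68 for BST2, -3.53 for XAF1, -3.10 for IFIT1 and -2.79 for IFI44L.

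The response to IL-1beta differed between the lines in 15 members by the same kind of test. The differences, again TeloHAEC minus Eahy926, were 3.54 for SOCS1, 1.70 for ISG20, 0.65 for DDX58, 0.64 for IRF1 and 0.64 for OASL, and -0.96 for OAS1, -0.71 for USP18, -0.44 for IFI44, -0.41 for IFITM2 and -0.36 for TRIM25. With all 5 untreated libraries the IFI44 difference was -0.05 (adjusted p = 0.939), and IFITM2 and TRIM25 no longer passed (0.0602 and 0.0854). IFI44 and TRIM25 were also lost with either rescaling, and OASL with no filter (0.0550). In Eahy926 itself no member passed the test with IL-1beta.

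The 2 untreated Eahy926 libraries that stayed outside the comparisons stood apart from the 3 controls of that line. In both of them 38 of 54 members were above all 3 controls, and 7 were below all 3. Over all 13542 genes tested the shares were 40.2% above and 17.6% below. The members' median log2 difference was 0.51, against 0.12 over all genes. OAS2 was at 11.1 and 10.6 TPM there against 2.41 to 3.57 TPM in the controls, IFIT1 at 15.8 and 16.6 TPM against 3.94 to 5.26 TPM, and BST2 at 1.23 and 1.1 TPM against 0.301 to 0.327 TPM. IFITM3 went the other way, at 762 and 752 TPM against 1123 to 1294 TPM. With TNF-alpha all 3 of OAS2, IFIT1 and BST2 were far above either untreated set. In TeloHAEC the same count was 17 of 54 above and 16 below. Summed epithelial markers were at 2137 to 2248 TPM in the 2 untreated Eahy926 libraries and 4095 to 4158 TPM in the controls, and their part was not tested. No reason for the difference is given by the labels, and none was tested.

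No member named in the knockdowns had a non-targeting library that stood apart from the other 3 by Dixon's criterion (9 members checked).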

How the results depend on the processing

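Of 20 counts of called members, those for TNF-alpha in Eahy926 (52), TNF-alpha in TeloHAEC (34), IL-1beta in TeloHAEC (24), the untreated lines (40) and the line difference in either cytokine response (46 and 15) stayed within 1.5 times under every alternative run. With all 5 untreated libraries per line, the VEGF-free count went from 10 to 5. IL-1beta against TNF-alpha went from 22 to 11, though neither compared group changed. Added untreated libraries act there through the shared spread, the filter and the adjustment over genes, and these were not told apart. PDCD10 went from 7 to 4 with no filter and to 0 when only the groups compared were fitted, and MESDC1 from 0 to 3 there. Leaving out 1 library gave 5 to 9 for VEGF-free, 13 to 24 for IL-1beta against TNF-alpha, 3 to 7 for CCM2, 1 to 5 for ITGB1BP1 and 0 to 19 for PDCD10. Of 1010 values of named members under an alternative, 929 kept direction and call, 80 kept the direction only and 1 reversed: IFITM3 with TNF-alpha in TeloHAEC, 0.0550 with all 5 untreated libraries. Without the 5 most abundant members the summed TPM was 1343 in Eahy926 controls and 5050 with TNF-alpha, and 983 and 1353 in TeloHAEC.

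Replicate numbers did not pair the libraries: the mean correlation of same-numbered deviations was -0.00078 in TeloHAEC and 0.0125 in Eahy926, and 0 of 18 pairs in each line passed 0.1. With a replicate block the counts were 53 for TNF-alpha in Eahy926, 34 for TNF-alpha and 23 for IL-1beta in TeloHAEC, 9 for VEGF-free, 37 for the untreated lines and 47 for the TNF-alpha line difference. Rescaling moved the share of all calls that were higher from 31.8% to 47.4% (median of ratios) for IL-1beta in TeloHAEC and from 40.3% to 61.6% for CCM2, while the members' counts moved by at most 3. Values under 1 TPM are limited by an unknown depth.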
